A study of Oryza sativa Japonica Group with 10 samples.

Results

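The response of OsJAZ1-OE shoots to drought was measured by RNA-seq in 5 of the 10 libraries of the study. OsJAZ1-OE denotes plants of the japonica variety Zhonghua 11 (ZH11) that overexpress OsJAZ1, a repressor of jasmonate (JA) signaling, from the drought-inducible OsLEA3-1 promoter. The labels give the single name OsJAZ1-OE and no line number, whereas the paper describes 2 independent lines. Effects of the transgene and of the line or lines used therefore cannot be told apart. Seedlings were grown in barrels to the 4-leaf stage and either watered (normal condition, libraries 1, 2 and 3) or left to dry until soil water stood at 10 to 15% by the labels (drought, libraries 1 and 2), whereas the study's methods give a drier range for its test of seedlings. The authors left out the third drought library of each genotype for its low correlation with the others, and it was not analysed here. Wild-type ZH11 plants, grown and dried in the same way, gave 3 normal and 2 drought libraries, which share the estimate of spread behind every test and give values below where the genotypes are compared. All 55689 genes in the tables were considered, and the 24850 with enough counts were tested.

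Drought makes plants accumulate abscisic acid (ABA), which binds PYL receptors. The bound receptors hold back clade A PP2C phosphatases, and this frees SnRK2 kinases (SAPK in rice) to activate bZIP factors that turn on protective genes such as those of LEA proteins. Growth, cell division and photosynthesis are usually reduced at the same time, and cytokinin, a hormone that promotes division and delays senescence, often acts in opposition to ABA. JAZ proteins such as OsJAZ1 bind and block the transcription factors that carry out the JA response.

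The libraries held 32396154 to 32949536 estimated fragments in the normal condition and 32829450 to 32939213 under drought. Levels are given in FPKM, the number of fragments scaled to transcript length and to library size, whose Pearson r across genes was 0.97253 to 0.99166 between normal libraries and 0.99358 between the drought libraries. The authors had kept the drought libraries on such a correlation, so the drought value cannot be set against the normal ones. The 4 leaf mesophyll markers that could be matched (CAB1R, CAB2R, RBCS-C and RCA) summed to 8880 to 10100 FPKM in the normal and 7180 to 7730 FPKM in the drought libraries. The 3 root markers summed to 7.64 to 8.41 FPKM and to 9.94 to 11.8 FPKM under drought, with 1 of them below 1 FPKM in every library, the 4 shoot meristem markers stayed below 1 FPKM, and of the 4 panicle markers OsMADS14 alone exceeded 1 FPKM. In such bulk RNA, fewer cells of a type and less RNA per cell cannot be told apart.

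Drought moved a large part of the transcriptome. At an adjusted p under 0.05 (edgeR quasi-likelihood test, Benjamini-Hochberg adjustment over all genes tested), 4734 genes rose, which is 19.1% of those tested, and 4960 fell (20.0%), so that 39.0% of all genes passed. With the additional requirement of at least a 2-fold change, a gene was counted as called, and 11.0% of genes were called, 4.36% higher and 6.62% lower. Of the called genes, 388 rose and 496 fell at least 4-fold. A change of at least 16-fold was seen for 86 higher and 59 lower genes. The called genes that rose were the more abundant: their median drought level was 10.1 FPKM, whereas the median normal level of those that fell was 3.81 FPKM. Calls were spread over all 12 chromosomes, from 9.33% of the genes tested on chromosome 2 to 12.2% on chromosome 4. In 2706 of the 2729 called genes the drought libraries did not overlap the normal ones, a rate to be read against 29.8% of all genes tested with both drought libraries above and 31.6% with both below.

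**Figure D1:**
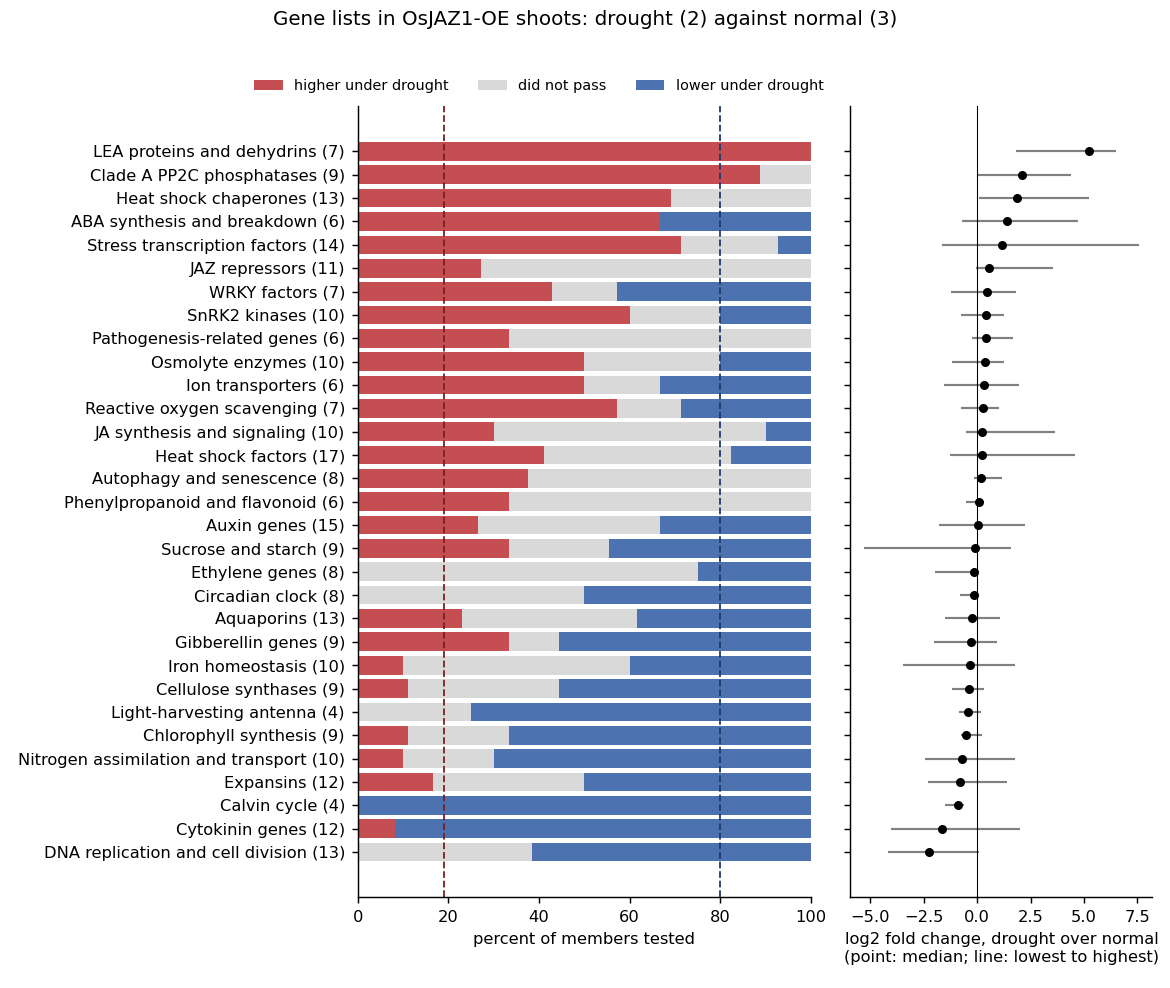
Left, the percent of the tested members of each gene list (number in parentheses) that rose, fell or did not pass at an adjusted p under 0.05 in OsJAZ1-OE shoots under drought; the dashed lines mark the shares over all genes tested, 19.1% higher from the left edge and 20.0% lower from the right edge. Right, the median (point) and the lowest to highest (line) log2 fold change of each list, from LEA proteins and dehydrins with a median of 5.24 to DNA replication and cell division with a median of -2.24.

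Of 6 genes of ABA synthesis and breakdown 4 rose and 2 fell, shares that, like those of every list below, are to be read against the 19.1% and 20.0% of all genes tested. OsNCED3 and OsNCED4 encode 9-cis-epoxycarotenoid dioxygenases, which cut a carotenoid in the committed step of ABA synthesis. OsNCED3 measured 1.46, 1.67 and 1.02 FPKM in the normal libraries against 26.2 and 18.004 FPKM under drought (log2 fold change 3.96 ± 0.20 SE, adjusted p = 1.68e-07). OsNCED4 went from 0.788, 0.485 and 0.327 FPKM to 23.1 and 6.97 FPKM (4.72 ± 0.51, adjusted p = 4.55e-05). All drought values lay above all normal values for both genes, but the drought libraries differed more than 3-fold for OsNCED4. The ABA 8'-hydroxylases, which break ABA down, moved in different directions. OsABA8ox1 rose by 2.16 ± 0.51 on the log2 scale and OsABA8ox2 by 0.67 ± 0.07, whereas OsABA8ox3 fell from 20.1, 20.1 and 19.9 FPKM to 13.2 and 12.4 FPKM (-0.69 ± 0.11, adjusted p = 0.000779). OsZEP, zeaxanthin epoxidase, the most abundant gene of this list, fell slightly (-0.34 ± 0.08). The 1 receptor gene that could be matched, OsPYL2, fell from 3.33, 2.45 and 3.82 FPKM to 1.13 and 0.595 FPKM (-1.86 ± 0.38, adjusted p = 0.00275).

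The clade A PP2C genes rose with 1 exception. Of 9 members 8 rose, all at least 2-fold, with a median log2 fold change of 2.12 over the list against 0.001 over all genes tested. OsPP2C68 had the lowest adjusted p of the list and measured 10.5, 10.2 and 10.5 FPKM in the normal libraries against 194 and 148 FPKM under drought (3.93 ± 0.09, adjusted p = 1.6e-09). OsPP2C49 rose from 6.30, 6.79 and 5.02 FPKM to 143 and 122 FPKM (4.40 ± 0.13), and OsPP2C30 from 15.4, 15.3 and 14.2 FPKM to 164 and 124 FPKM (3.17 ± 0.10). The most abundant member, OsPP2C09, reached 476 and 382 FPKM from 79.9 to 91.7 FPKM. OsPP2C53 was the exception, with 17.3 to 19.1 FPKM in the normal and 20.7 and 17.1 FPKM in the drought libraries (0.04 ± 0.09, adjusted p = 0.762).

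Among the 10 SAPK kinase genes the changes were smaller. In all, 6 rose and 2 fell, with a median of 0.41, and SAPK6 alone was called. SAPK6 went from 29.4, 30.7 and 29.7 FPKM to 74.5 and 67.1 FPKM (1.24 ± 0.05, adjusted p = 7.5e-08) and SAPK3 rose by 0.92 ± 0.06. SAPK2, the most abundant of these kinases in the normal condition, fell from 77.5, 75.9 and 76.0 FPKM to 47.9 and 41.9 FPKM (-0.76 ± 0.08, adjusted p = 5.63e-05). Both bZIP factors of the ABA pathway that could be matched rose. OsbZIP23 measured 16.9, 17.9 and 19.4 FPKM against 109 and 90.9 FPKM (2.38 ± 0.07), and TRAB1 19.5 to 20.6 FPKM against 35.6 and 36.1 FPKM (0.76 ± 0.08). All 7 LEA and dehydrin genes tested rose, by 1.83 to 6.50 on the log2 scale, and 1 further matched member had too few counts to be tested. OsLEA3, whose promoter drives the transgene in these plants, rose from 1.80, 1.67 and 2.06 FPKM to 78.6 and 65.8 FPKM (5.24 ± 0.36). OsJAZ1 itself measured 1281, 1200 and 1239 FPKM in the normal and 1388 and 1177 FPKM in the drought libraries, overlapping ranges that gave -0.06 ± 0.07 (adjusted p = 0.51).

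**Figure D2:**
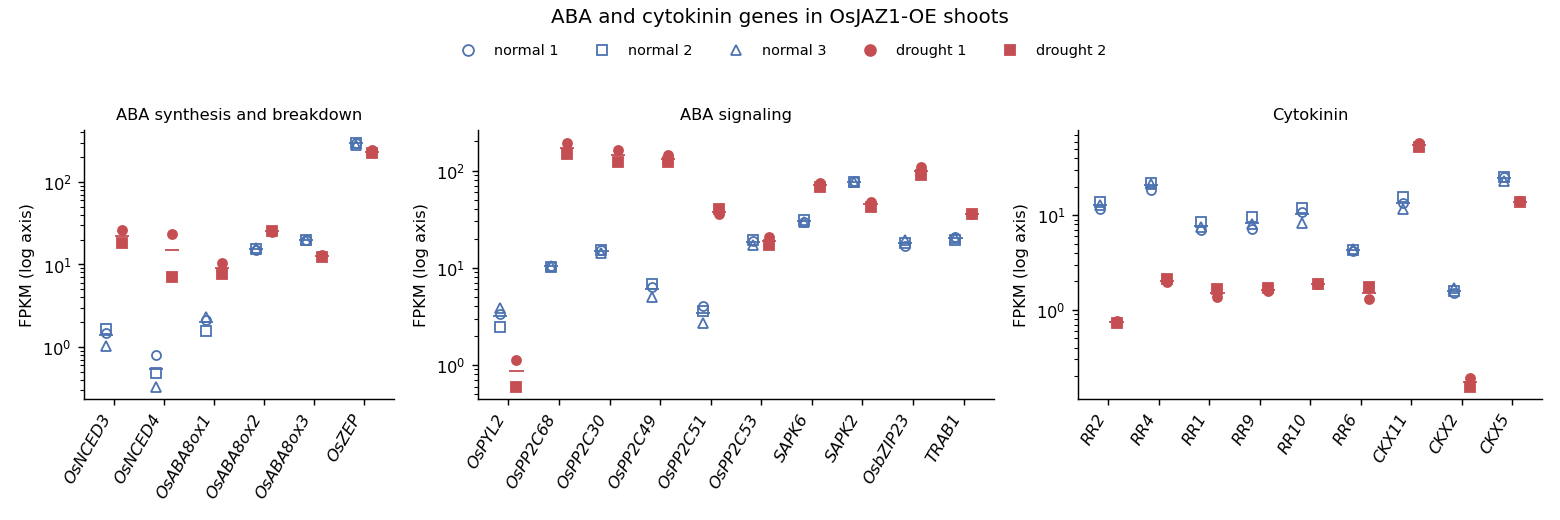
FPKM (log axis) of ABA and cytokinin genes in each of the 3 normal (blue, open) and 2 drought (red, filled) libraries of OsJAZ1-OE, with group means as short lines. The PP2C genes except OsPP2C53 lie well above their normal values under drought, the RR genes lie below theirs, and CKX11 is the cytokinin gene that rose.

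Cytokinin genes moved the other way and almost without exception. Of 12 members tested, 11 fell and 1 rose, with a median log2 fold change of -1.65. Type-A response regulators (RR) are quickly induced by cytokinin and damp its signal. All 6 that were tested fell, by between 1.51 and 4.04 on the log2 scale, with no overlap between the conditions. RR2 dropped from 11.8, 13.9 and 12.8 FPKM to 0.755 and 0.726 FPKM (-4.04 ± 0.12, adjusted p = 5.15e-09) and RR4 from 18.6, 22.2 and 21.2 FPKM to 1.95 and 2.11 FPKM (-3.35 ± 0.12, adjusted p = 1.2e-08). The CKX genes encode cytokinin oxidases, which degrade the hormone. Of these 6, 5 fell and CKX11 rose, from 13.4, 15.5 and 11.7 FPKM to 58.6 and 53.0 FPKM (2.02 ± 0.10, adjusted p = 1.93e-07), which made it the most abundant cytokinin gene measured under drought. CKX5, next in level, fell from 23.2 to 25.7 FPKM to 14.0 and 13.8 FPKM (-0.88 ± 0.09).

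The other growth hormones showed mixed changes. Of 9 gibberellin genes, 3 rose and 5 fell. The receptor gene GID1 increased from 73.5, 74.1 and 71.0 FPKM to 156 and 136 FPKM (0.94 ± 0.05, adjusted p = 4.62e-07), while GID2, the F-box partner through which the receptor acts, fell from 112 to 118 FPKM to 77.0 and 76.7 FPKM (-0.55 ± 0.07). OsCPS1, an early enzyme of gibberellin synthesis, fell by 2.01 ± 0.20. Of 15 auxin genes, 4 rose and 5 fell. Aux/IAA proteins repress auxin-responsive transcription, and their genes split: IAA6 rose from 2.84, 2.91 and 2.66 FPKM to 13.4 and 11.4 FPKM (2.15 ± 0.11), IAA9 rose from under 0.6 FPKM to 1.86 and 1.92 FPKM, and IAA31 fell from 6.23, 6.92 and 7.18 FPKM to 1.66 and 2.15 FPKM (-1.81 ± 0.21). IAA13, the most abundant, gave 196 to 202 FPKM in the normal and 218 and 205 FPKM in the drought libraries and did not pass (0.05 ± 0.05). In the ethylene list, 2 of 8 genes passed, both lower. ACO1, which encodes an enzyme of the last step of ethylene synthesis, measured 5.73, 9.65 and 9.35 FPKM in the normal libraries against 2.64 and 1.70 FPKM under drought (-1.99 ± 0.30, adjusted p = 0.000465), without overlap. The 4 ethylene receptor genes and EIN2 had log2 fold changes between -0.16 and 0.07 and none passed. With either drought library left out, 3 gibberellin and 3 auxin genes fell in place of 5 and 5.

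Genes of transcription factors that respond to stress mostly rose, 10 of 14, with 1 lower. The largest change of any abundant gene in the comparison was that of Oshox24, a homeodomain-leucine zipper gene at 26143309 to 26144731 on chromosome 2 in the coordinates of the deposited files. It measured 0.471, 0.210 and 0.322 FPKM in the normal libraries and 89.7 and 46.4 FPKM under drought (7.57 ± 0.33, adjusted p = 6.73e-08). Its relative Oshox22 rose from 28.6, 26.0 and 26.7 FPKM to 177 and 160 FPKM (2.60 ± 0.12), whereas Oshox12, at 1.77 FPKM or less, fell. Among the DREB factors, which bind drought-responsive promoters, OsDREB1C rose from 0.161 FPKM or less to 3.26 and 3.00 FPKM (4.50 ± 0.39), and OsDREB2B stayed at 44.3 to 51.7 FPKM (0.10 ± 0.06, adjusted p = 0.237). SNAC1, a NAC factor of the drought response, rose from 81.3, 74.7 and 85.8 FPKM to 260 and 231 FPKM (1.53 ± 0.28).

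For OsDREB1A and some of the JAZ and JA genes the outcome depended on the ZH11 libraries, and for OsDREB1B the size of the p-value did. OsDREB1B measured 1.73, 0.964 and 1.06 FPKM in the normal and 23.1 and 16.7 FPKM in the drought libraries (3.90 ± 1.30), with an adjusted p of 0.0352 in the fit over all libraries and 3e-05 in a fit of the OsJAZ1-OE libraries alone. OsDREB1A, at 0.996, 0.347 and 1.05 FPKM against 4.20 and 4.14 FPKM, changed from an adjusted p of 0.12 to 0.00196. The drought libraries of ZH11 differed for these genes by 6.40 and 5.80 on the log2 scale. The call of OsDREB1B was lost in 7 of the alternative analyses. Of 11 JAZ genes tested, 3 rose in the fit over all libraries, and 7 passed in the OsJAZ1-OE libraries alone or without either ZH11 drought library. Of 10 genes of JA synthesis and signaling, 3 rose and 1 fell in the fit over all libraries, and 5 rose and 2 fell in the narrower one. OsJAZ12 measured 13.4, 9.38 and 11.6 FPKM against 45.8 and 35.9 FPKM (1.70 ± 0.40, adjusted p = 0.00679), and OsJAZ13 0.708, 0.233 and 0.263 FPKM against 5.76 and 4.61 FPKM (3.56 ± 0.88, adjusted p = 0.00868). OsJAZ10, at 37.4, 27.0 and 38.2 FPKM against 82.8 and 67.6 FPKM, did not overlap but passed only in the narrower fit (adjusted p = 0.166 and 0.000712). OsbHLH148, a bHLH factor linked to JA signaling, behaved likewise, with 16.9 to 21.1 FPKM against 68.8 and 58.1 FPKM and adjusted p values of 0.0732 and 1.26e-05. OsbHLH006, a bHLH factor of JA signaling, passed in both fits, rising from 1.51, 1.57 and 1.37 FPKM to 17.4 and 16.2 FPKM (3.66 ± 0.82).

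Heat shock chaperones rose strongly. Of 13 members, 9 passed, all higher and all at least 2-fold, with a median log2 fold change of 1.86. Small heat shock proteins keep unfolding proteins from aggregating, and 8 of the 10 that were measured rose. OsHsp16.9A measured 5.55, 3.55 and 4.63 FPKM in the normal and 159 and 212 FPKM in the drought libraries (5.26 ± 0.31, adjusted p = 5.89e-07). OsHsp16.9C, 1 of its 2 neighbours on chromosome 1, went from 1.45 to 2.32 FPKM to 22.2 and 36.1 FPKM (3.87 ± 0.34). These neighbouring copies are similar in sequence and reads may have been divided between them. OsHsp26.7, a chloroplast protein, rose from 5.34, 3.88 and 5.46 FPKM to 52.2 and 106 FPKM (3.94 ± 0.36). OsHsp18.0, the most abundant member, was high already in the normal condition, with 90.2, 126 and 178 FPKM against 207 and 353 FPKM (1.01 ± 0.32, adjusted p = 0.0287), and it lost its call in 4 of the alternative analyses. HSP81-1, an HSP90 chaperone, measured 102 to 127 FPKM in the normal and 85.5 and 158 FPKM in the drought libraries and did not pass (0.10 ± 0.33).

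The heat shock factor (HSF) genes did not move as a family. Of 17, 7 rose and 3 fell, with a median of 0.23. The largest increases were in class C, where OsHsfC2a went from 0.742, 1.16 and 0.825 FPKM to 23.4 and 21.2 FPKM (4.58 ± 0.33) and OsHsfC2b from 3.22, 3.46 and 2.76 FPKM to 31.4 and 25.2 FPKM (3.53 ± 0.12). OsHsfC1a, of the same class, fell by 1.29 ± 0.18. The 9 class A factors, which include the activators of heat shock genes, had log2 fold changes between -0.98 and 0.79, and 5 of them did not pass.

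All 13 chaperone genes were higher in drought library 2 than in drought library 1, with a median log2 ratio of library 1 to library 2 of -0.70. Clade A PP2C genes showed the reverse in 8 of 9 members (median 0.24 higher in library 1), and so did 6 of 7 LEA genes, 10 of 11 JAZ genes and all 7 WRKY genes. Cytokinin genes were split 6 to 6. In ZH11, where the library numbers mark other plants, drought library 1 was the higher for 0 of 13 chaperone, 3 of 9 PP2C, 0 of 7 LEA, 11 of 11 JAZ, 6 of 7 WRKY and 8 of 12 cytokinin genes. Across the called genes, 67.9% of those that rose and 36.1% of those that fell were higher in drought library 1. Most genes differed little: over the 20889 genes with a mean of at least 1 FPKM, the drought libraries differed by a median of 0.14 on the log2 scale and 1.84% of genes differed 2-fold or more, close to the 1.77 to 1.94% between pairs of normal libraries. The drought libraries had been kept for their correlation, so their spread is not that of an unselected set. How the plants behind the drought libraries differed was not tested.

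**Figure D3:**
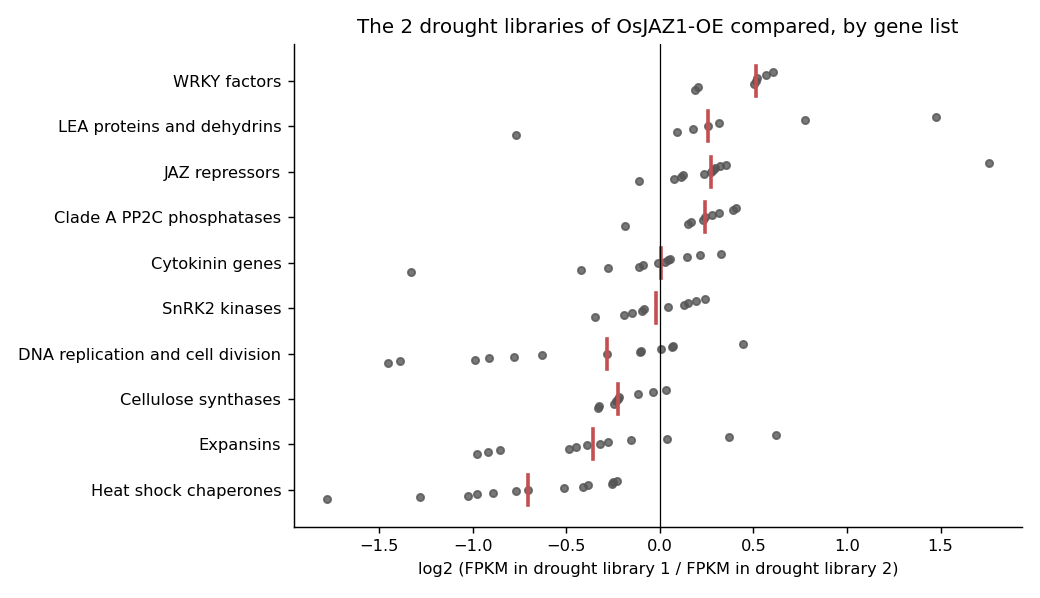
Log2 ratio of the FPKM in drought library 1 to that in drought library 2 of OsJAZ1-OE for each tested gene (points) of 10 lists, with the list median as a red bar. All 13 heat shock chaperone genes lie left of 0 (higher in library 2) with a median of -0.70, and the 7 WRKY genes lie right of it with a median of 0.51.

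Genes of wall growth fell more often than they rose. Cellulose synthases make the cellulose of the wall, and in rice CESA4, CESA7 and CESA9 serve the secondary wall. Of 9 CESA genes, 5 fell and 1 rose. The 5 that fell (CESA1, CESA3, CESA5, CESA6 and CESA8) did so by between 0.36 and 1.19 on the log2 scale. CESA6 measured 31.8, 36.9 and 36.3 FPKM in the normal and 15.5 and 18.009 FPKM in the drought libraries (-1.05 ± 0.09, adjusted p = 9.41e-06), and CESA1 111, 128 and 124 FPKM against 63.2 and 74.5 FPKM (-0.81 ± 0.08). The 3 genes of the secondary wall had log2 fold changes between 0.07 and 0.32, and CESA9 passed (0.32 ± 0.08, adjusted p = 0.0107), although no CESA gene rose without drought library 2. The call of CESA3 (-0.36 ± 0.10, adjusted p = 0.0161) was lost without drought library 1 and without normal library 2. This grouping was made after the values were seen.

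Expansins loosen the wall during cell expansion. Of 12, 6 fell, 2 rose and 4 did not pass, with a median of -0.82. EXPB11 measured 13.9, 12.7 and 10.9 FPKM against 2.23 and 2.78 FPKM (-2.31 ± 0.25, adjusted p = 4.86e-05), EXPB3 52.1 FPKM in the median normal library against 18.4 and 24.1 FPKM (-1.30 ± 0.15), and EXPB4 57.8, 77.6 and 64.2 FPKM against 27.1 and 30.1 FPKM (-1.27 ± 0.15). EXPA5 was among the exceptions and rose from 7.52, 8.86 and 9.84 FPKM to 16.1 and 30.5 FPKM (1.41 ± 0.35, adjusted p = 0.00833). Without drought library 2, 1 expansin rose in place of 2.

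**Figure D4:**
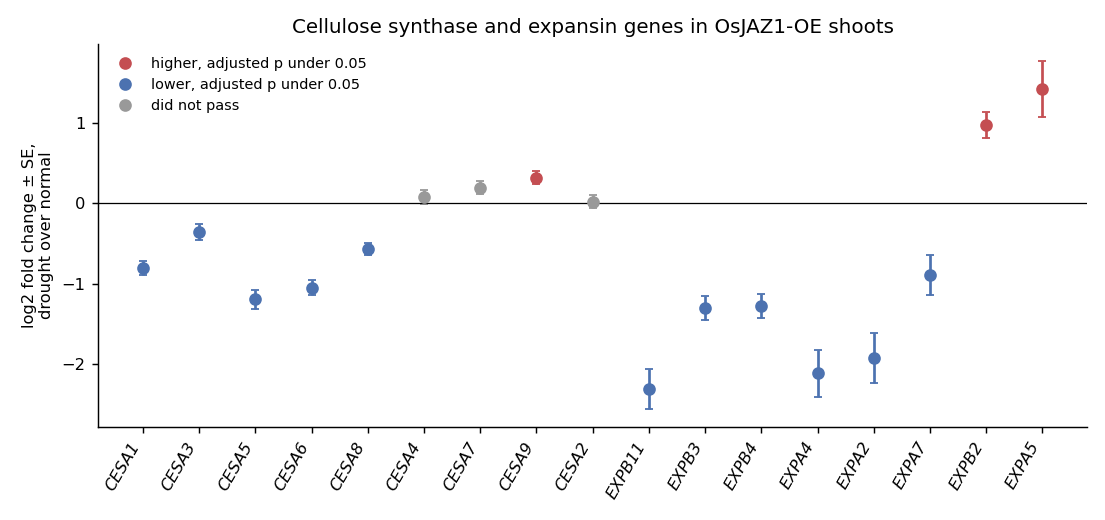
Log2 fold change (drought over normal, ± SE, from the fit over all libraries) of the 9 cellulose synthase genes and of the 8 expansin genes that passed the test in OsJAZ1-OE shoots. CESA1, CESA3, CESA5, CESA6 and CESA8 lie below 0, CESA4, CESA7, CESA9 and CESA2 at or above it, and EXPB2 and EXPA5 are the expansins that rose.

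Genes of DNA replication and cell division also fell, 8 of 13, with a median of -2.24, from low levels in the normal condition. CDKB2, a kinase of dividing cells, measured 3.88, 4.65 and 7.71 FPKM against 0.343 and 0.680 FPKM (-3.41 ± 0.61, adjusted p = 0.00136), and CYCB2;2, a cyclin of mitosis, 0.495, 0.812 and 1.68 FPKM against 0.0411 and 0.0637 FPKM (-4.20 ± 0.74). The 12 largest decreases among genes without overlap that averaged at least 10 FPKM in the normal condition included 2 histone H3 genes. The H3 gene LOC_Os11g05730 measured 8.04, 8.56 and 22.9 FPKM against 0.350 and 0.380 FPKM (-5.02 ± 1.03) and LOC_Os06g06510 17.9, 26.0 and 54.2 FPKM against 1.92 and 2.32 FPKM (-3.88 ± 0.78). Histone genes form a large family of near-identical copies, so reads may have been divided among them. For these 4 genes normal library 3 was the highest, and it was the highest normal library for 45.1% of all called genes that fell (22.6% for library 1 and 32.3% for library 2). PCNA, the replication clamp, stayed at 16.8 to 21.8 FPKM in the normal and 17.2 and 17.1 FPKM in the drought libraries (-0.16 ± 0.13).

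In photosynthesis, all 4 Calvin cycle genes that were matched fell, with a median of -0.89, while the antenna was uneven. RBCS-C, a Rubisco small subunit gene, dropped from 3113, 2778 and 2700 FPKM to 1100.5 and 960.5 FPKM (-1.49 ± 0.09, adjusted p = 4.62e-07), and RCA from 411, 387 and 350 FPKM to 276 and 259 FPKM (-0.60 ± 0.08). Of 4 antenna genes 3 fell. Lhcb6, an antenna protein of photosystem II, fell from 732, 787 and 675 FPKM to 422 and 389 FPKM (-0.86 ± 0.08), whereas CAB1R, the most abundant antenna gene, lay at 3437 to 3974 FPKM in the normal and at 4494 and 4159 FPKM in the drought libraries and did not pass (0.20 ± 0.08, adjusted p = 0.0767). Small subunit and antenna genes are close copies of one another, with the same limit on dividing reads. Of 9 genes of chlorophyll synthesis, 6 fell and 1 rose, all by less than 2-fold. CHLH, a subunit of the magnesium chelatase that starts the chlorophyll branch, fell from 54.1, 52.2 and 49.6 FPKM to 29.2 and 31.4 FPKM (-0.75 ± 0.07, adjusted p = 1.8e-05). CHLG, the chlorophyll synthase of the last step, fell by 0.72 ± 0.08. PORB, the most abundant, did not pass (-0.15 ± 0.08).

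Of 10 genes of nitrogen assimilation and transport, 7 fell and 1 rose, with a median of -0.70. The plastid glutamine synthetase GS2 measured 295, 278 and 274 FPKM against 172 and 160 FPKM (-0.81 ± 0.08, adjusted p = 3.68e-05), and its cytosolic counterpart GS1;1 449, 384 and 374 FPKM against 257 and 210 FPKM (-0.89 ± 0.11). NRT2.3, a nitrate transporter gene, fell from 7.57, 8.57 and 7.44 FPKM to 1.70 and 1.23 FPKM (-2.46 ± 0.19). GLT2, an NADH-dependent glutamate synthase, was the member that rose, from 2.64, 2.85 and 2.26 FPKM to 8.60 and 9.30 FPKM (1.79 ± 0.09, adjusted p = 1.39e-07).

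Among sucrose and starch genes, 3 of 9 rose and 4 fell, and isoforms of sucrose synthase, which cleaves sucrose, moved apart. SUS4 rose from 10.3, 10.5 and 10.7 FPKM to 30.5 and 31.3 FPKM (1.60 ± 0.06, adjusted p = 3.81e-08), and SUS1 fell from 178, 241 and 241 FPKM to 65.1 and 83.2 FPKM (-1.56 ± 0.18, adjusted p = 7.18e-05). CIN2, a cell wall invertase, fell from 1.72, 2.17 and 2.84 FPKM to 0.0456 and 0.0727 FPKM (-5.30 ± 0.52), and the sucrose transporter SUT1 rose from 27.6, 28.3 and 26.2 FPKM to 54.2 and 50.9 FPKM (0.95 ± 0.08). Of 10 osmolyte genes, 5 rose and 2 fell. Proline protects dehydrating cells, and OsOAT, ornithine aminotransferase, 1 of the enzymes on a route to it, rose from 13.3, 13.3 and 13.8 FPKM to 32.7 and 32.2 FPKM (1.27 ± 0.06). OsP5CS1, the main proline synthesis enzyme, rose by 0.75 ± 0.08, and OsTPS1, trehalose-6-phosphate synthase, fell from 7.70, 9.57 and 9.90 FPKM to 3.72 and 4.07 FPKM (-1.19 ± 0.10). BADH2, the most abundant, did not pass.

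Water channels moved in both directions, with 3 of 13 higher and 5 lower. TIP1;2, a channel of the vacuole membrane, rose from 297, 298 and 278 FPKM to 584 and 633 FPKM (1.09 ± 0.09, adjusted p = 9.59e-06). PIP1;1, a channel of the plasma membrane, rose by 0.60 ± 0.09 to 719 and 671 FPKM, whereas PIP1;3 fell from 102, 95.5 and 97.6 FPKM to 60.9 and 53.4 FPKM (-0.82 ± 0.09). PIP2;7, the most abundant, measured 2813 to 3025 FPKM against 2616 and 2443 FPKM and did not pass (-0.22 ± 0.09, adjusted p = 0.0849). Without drought library 2, 3 water channel genes fell in place of 5. Of 6 ion transporter genes, 3 rose and 2 fell. OsHKT1;1, a sodium transporter, rose from 1.49, 1.78 and 1.17 FPKM to 5.91 and 5.39 FPKM (1.95 ± 0.15), and OsHAK1, a potassium transporter, fell from 17.2, 15.3 and 15.4 FPKM to 8.58 and 5.36 FPKM (-1.23 ± 0.17). In the list of reactive oxygen enzymes, 4 of 7 rose and 2 fell. SodCc2, a superoxide dismutase, rose from 289, 275 and 288 FPKM to 589 and 621 FPKM (1.03 ± 0.10), CatA, a catalase, fell from 614, 661 and 592 FPKM to 399 and 355 FPKM (-0.74 ± 0.08), and APX2, the most abundant, did not pass. The count of lower genes in this list was 1 without drought library 2, normal library 1 or normal library 3, and the ion transporters gave 1 higher and 1 lower gene without drought library 1 in place of 3 and 2.

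Of 10 iron genes, 4 fell and 1 rose. NAS1 and NAS2 are neighbours on chromosome 3 and encode nicotianamine synthase, whose product carries iron in the plant. NAS1 fell from 6.58, 14.9 and 15.2 FPKM to 0.876 and 1.35 FPKM (-3.48 ± 0.53, adjusted p = 0.000487) and NAS2 from 3.51, 6.63 and 6.93 FPKM to 0.449 and 0.600 FPKM (-3.45 ± 0.46, adjusted p = 0.000212). These copies are close to each other in sequence and are not independent. VIT2, which loads iron into the vacuole, rose from 8.35, 7.71 and 8.11 FPKM to 31.1 and 24.1 FPKM (1.75 ± 0.14).

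Of 8 genes of autophagy and senescence 3 rose, all of them genes of chlorophyll breakdown. SGR, which removes magnesium from chlorophyll, measured 112, 77.2 and 80.9 FPKM against 216 and 183 FPKM (1.12 ± 0.14, adjusted p = 0.000102), and the chlorophyll b reductase genes NYC1 and NOL rose by 0.87 ± 0.08 and 1.17 ± 0.11. None of the 5 autophagy genes passed, and their log2 fold changes ran from -0.16 to 0.19. Of 8 clock genes 4 fell and none was called. The largest of these changes was that of PCL1, a component of the evening complex, from 157, 161 and 156 FPKM to 100.4 and 90.8 FPKM (-0.81 ± 0.06, adjusted p = 4.59e-06), while GI stayed at 255 to 260 FPKM in the normal and 237 and 229 FPKM in the drought libraries (-0.09 ± 0.08). Of 6 phenylpropanoid and flavonoid genes 2 rose, by at most 0.30. Of 6 pathogenesis-related genes 2 rose, and the most abundant, PBZ1, ranged from 305 to 425 FPKM in the normal condition and gave 437 and 346 FPKM under drought. Of 7 WRKY genes 3 rose and 3 fell. WRKY45, a regulator of defence, measured 169, 106 and 120 FPKM against 90.0 and 60.7 FPKM (-0.98 ± 0.22). Without drought library 2 no WRKY gene fell, and without drought library 1 only 1 rose. Without drought library 2, 2 clock genes fell, and without either drought library 1 phenylpropanoid gene rose.

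Many of the largest changes belonged to genes without a matched name, since names were looked up for listed loci only. LOC_Os11g07911 rose from 0.743, 0.356 and 0.908 FPKM to 136 and 67.2 FPKM (7.17 ± 0.46). LOC_Os10g05950 gave the largest decrease among abundant genes, from 56.7, 78.0 and 76.2 FPKM to 0.374 and 0.733 FPKM (-7.01 ± 0.42, adjusted p = 6.07e-07). It stands at the start of a run of 5 neighbouring tested genes that were all called lower, on chromosome 10 from 2999296 to 3032720 in the coordinates of the files, and the other members include LOC_Os10g06000, which fell from 291, 371 and 315 FPKM to 36.7 and 48.0 FPKM (-2.93 ± 0.20). No run of called genes was longer, and another run of 5 lay on chromosome 11. In absolute level the largest gain was that of LOC_Os11g02350, from 2971, 3290 and 2882 FPKM to 7031 and 7521 FPKM (1.26 ± 0.09). MFT1, of the family of phosphatidylethanolamine-binding proteins, rose from 3.32, 5.28 and 2.82 FPKM to 119 and 83.9 FPKM (4.72 ± 0.20). Among large losses, the metallothionein gene MT2B fell from 1647, 1743 and 1588 FPKM to 610.3 and 578 FPKM (-1.55 ± 0.07, adjusted p = 1.35e-07).

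FPKM values and counts were also compared, because they weight transcripts of different length differently. Over the called genes the log2 ratio of mean FPKM differed from the fitted change by a median of 0.046, and it differed by more than 1 in 16 genes and had the opposite sign in 2. LOC_Os05g04710 was such a case and had the widest gap between the drought libraries, with 34.3 and 2.08 FPKM against 44.1, 0.423 and 18.2 FPKM in the normal libraries, while its estimated counts were 187.3 and 128.3 against 63.7, 24.3 and 42.8. For RR10 the FPKM ratio was -2.48 and the fitted change -1.54.

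Whether the response of OsJAZ1-OE differed from that of ZH11 was tested as the difference of the log2 fold changes. No gene passed in edgeR at an adjusted p under 0.05 (0.0% of those tested, lowest adjusted p 0.0925), with 2097 genes (8.44%) at an unadjusted p under 0.05, whereas DESeq2 called 101 genes and limma-trend 5 or 11 depending on the pseudocount. Without ZH11 drought library 2, edgeR called 123. The values below are therefore descriptions of genes whose difference was not established. NAS1 and NAS2 had log2 changes of -0.38 and -0.46 in ZH11, which left differences of -3.11 ± 0.69 and -2.99 ± 0.60 (unadjusted p = 0.000971 and 0.000446, adjusted p = 0.266 and 0.219). ACO1 gave -1.99 in OsJAZ1-OE and -0.72 in ZH11 (difference -1.27 ± 0.40, unadjusted p = 0.0096, adjusted p = 0.455). LOC_Os04g49210, annotated as a naringenin dioxygenase, fell from 9.74, 14.7 and 16.5 FPKM to 2.70 and 2.39 FPKM, a log2 change of -2.34 against -0.68 in ZH11 (unadjusted p = 3.58e-05, adjusted p = 0.0942). Of the 13 chaperone genes, 12 changed less in OsJAZ1-OE than in ZH11, where their median was 3.07, and 4 reached an unadjusted p under 0.05, none after adjustment. HSP90-04 gave 0.98 ± 0.54 in OsJAZ1-OE and 4.14 in ZH11 (unadjusted p = 0.00247, adjusted p = 0.388). Its normal levels were uneven, 1.40, 5.26 and 5.91 FPKM in OsJAZ1-OE against 1.13, 2.43 and 1.46 FPKM in ZH11. Under drought it measured 5.91 and 11.6 FPKM in OsJAZ1-OE, overlapping the normal range, and 19.5 and 42.0 FPKM in ZH11. Smaller changes than in ZH11 were not particular to chaperones: 11 of 11 JAZ, 12 of 14 stress factor and 7 of 9 PP2C genes showed them. For cytokinin genes the count was 5 of 12 and for iron genes 3 of 10. The share over all genes was not computed. The JAZ count includes OsJAZ1, which these plants overexpress. In ZH11, drought library 1 was the higher for 11 of 11 JAZ, 10 of 14 stress factor and 3 of 9 PP2C genes. The ZH11 drought libraries differed by up to 3.17 on the log2 scale among the JAZ genes and 6.40 among the stress factors. For the clade A PP2C genes the medians were 2.12 and 2.30, and for the cytokinin genes -1.65 and -1.58. The LEA and dehydrin genes had medians of 5.24 and 6.38, and 5 of 7 changed less in OsJAZ1-OE. Among them, OsLEA3 gave 5.24 against 6.89 in ZH11 (unadjusted p = 0.0224, adjusted p = 0.504). RAB21 gave 5.51 against 7.23 (unadjusted p = 0.0300, adjusted p = 0.539). Both genes had higher normal means in OsJAZ1-OE than in ZH11, 1.84 against 1.12 FPKM for OsLEA3 and 2.19 against 0.954 FPKM for RAB21. Under drought, RAB21 reached 112 and 99.2 FPKM in OsJAZ1-OE and 79.2 and 218 FPKM in ZH11, which overlap. The 78.6 and 65.8 FPKM of OsLEA3 stood against 80.0 and 198 FPKM in ZH11. The part of these differences that came from the normal levels was not tested.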

How the data were processed

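Shoot RNA of 10 libraries was sequenced as paired ends on an Illumina HiSeq platform and processed on the BMKCloud platform. The submitters' processing notes name TopHat2, Picard, SAMtools 0.1.18 and GATK, whereas the counting program and the genome build were not given in the sources used here. For each library the authors deposited estimated counts and FPKM values per transcript. Both were summed per gene. In each library 89.7 to 90.9% of the gene sums of counts above 0.5 and up to 1000 lay within 0.01 counts of a whole multiple of a step that differed between libraries (0.884 to 1.19), and the sums were rounded to whole numbers.

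Counts of 24850 genes that passed filterByExpr were fitted with edgeR 4.0.16 (TMM, quasi-likelihood, 1 mean per group over all 10 libraries) in R 4.3.3, and p-values were adjusted by Benjamini-Hochberg over all genes tested. The standard errors describe fitted log2 fold changes. Alternatives used limma 3.58.1 and DESeq2 1.42.0, other filters and scalings, and each library left out in turn. Data were also simulated for the comparison of drought with normal in OsJAZ1-OE (24509 genes), with 100 genes changed 2-fold and 100 changed 4-fold. Of these, 86% and 100% were recovered, and 0.04% of 24309 unchanged genes were called. The changed genes were drawn from those with higher counts, and spread followed its trend with level, without outlying genes or libraries. In the real data far more genes changed, so these rates hold for the simulated settings only. Libraries are labelled as separate samples, and p-values measure the spread between them. The exclusion of the third drought libraries by the authors leaves 2 libraries whose spread may be smaller than that of all those sequenced.

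Genes and lists were chosen with earlier results of these data known. Of 478 listed loci, the names of 309 were matched in RefSeq (assembly ASM3414082v1) and of 14 in the paper. The 139 not in that table, the 8 whose place went against it and the 8 not in the files were not used. As a result, 4 of the lists used (ABA receptors, bZIP factors, photorespiration and root markers) held fewer than 4 members. A further list, of cuticular wax genes, had no matched member and was not used. The loci of OsNCED4, SNAC1 and OsbHLH006 rest on the paper's names and general knowledge. Named genes were the 12 largest increases and 12 largest decreases among genes without overlap between the conditions whose higher group averaged 10 FPKM or more, the 6 largest changes of FPKM each way, the 3 lowest adjusted p, the highest mean and the highest mean without a call of each list, genes named in the paper, OsJAZ1, the 5 called genes that differed most between the drought libraries, and the 5 of each direction with the lowest p for the difference between genotypes. Genes without a matched name could be left out. Other list members named were chosen after their values were seen. Not every gene picked by the rule is given with its values.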

Additional observations from a re-analysis of the deposited data

How the results depend on the processing

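The drought response of OsJAZ1-OE gave 2729 called genes. The number fell to 1569 (771 higher and 798 lower, 1501 of them shared) with limma-trend on log2(FPKM + 1) and was 9694 with no fold limit. With 1 library left out at a time it ranged from 2109, without OsJAZ1-OE drought library 1, to 2790. For the difference of the responses, 0 genes passed in edgeR, against 101 in DESeq2, 5 and 11 in limma-trend on log2(FPKM + 0.1) and log2(FPKM + 1) and 45 with no filter. Leaving out 1 library gave 0 to 123, with 123 without ZH11 drought library 2, 3 without OsJAZ1-OE normal library 1 and 2 without ZH11 drought library 1. The cause was not tested. This difference uses all 4 groups, so a fit of only the groups compared gives no value for it. The replicate number as a block gave 2564 called genes and 0 for the difference. The labels give libraries with the same number nothing else in common. With 2 pairs a genotype, their deviations from group means correlated by 0.184 and 0.073 in OsJAZ1-OE and by 0.019 and 0.071 in ZH11. Pairs with different numbers gave -0.184 to 0.116 in OsJAZ1-OE and -0.071 to 0.058 in ZH11. The deviations of 2 drought libraries mirror each other, so these values cannot decide whether libraries of the same number shared a batch. With the replicate block 5 JAZ genes and 4 pathogenesis-related genes rose.

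Of 187 named genes, 151 passed the threshold and 132 of these did so in every alternative that gave a value. Calls were lost most often for LOC_Os01g10490 and LOC_Os07g23640 (8 alternatives each), OsDREB1B (7) and OsHsp18.0 (4). LOC_Os05g04710 changed sign to -0.038 with limma-trend on log2(FPKM + 1). Over the lists, 1386 counts stayed within 1.5 times and 58 did not, and none of the 58 concerned the PP2C, heat shock chaperone or cytokinin lists. With 2 drought libraries, the median SE was 0.23 for called higher and 0.31 for called lower genes.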
